A study of Mus musculus with 8 samples.

Results

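Glycolysis and hypoxia genes were followed in iNKT cells (invariant natural killer T cells) of mouse skin and spleen. These lymphocytes recognise lipids presented by CD1d. The group was set by name: 30 listed genes and the gene of pyruvate kinase M, which the deposited table carries under the older symbol Pkm2. All 31 were found among the 22549 genes of the table and had a count in at least 1 library. The study holds 4 libraries of skin iNKT cells and 4 of spleen iNKT cells, all from mice of genotype CCR10+/EGFP, in which 1 allele of the chemokine receptor gene Ccr10 carries the reporter. Both tissues share this genotype, and the labels give no treatment, age or sort gate and do not tie libraries to separate mice. The spread behind each p-value is that between these libraries, and it may be technical.

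Glycolysis converts glucose to pyruvate in the cytosol, and lactate dehydrogenase then reduces pyruvate to lactate. Activated T cells are known to raise glucose uptake and glycolytic enzymes. When oxygen is short, the hydroxylases that mark hypoxia-inducible factor (HIF) for destruction lose activity, and HIF raises most of the enzymes named here together with genes of angiogenesis, mitochondrial turnover and collagen modification. HIF is set largely at the level of its protein, which was not measured.

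The unit of level is CPM, here counts divided by the TMM-scaled library size, and fold changes are skin over spleen. Library totals ran from 7191131 to 9791973 expected counts. Of the 6920 genes tested, 26.1% to 32.6% stood at 0 in a skin library and 0.780% to 22.4% in a spleen library. Members with a count numbered 21 to 25 in skin libraries and 19 to 30 in spleen libraries, the 30 in spleen replicate 4. All 8 markers of iNKT and T cells were found in both tissues, with summed levels of 3932 to 5202 CPM in skin and 5003 to 7114 CPM in spleen. Of 15 keratinocyte markers, 9 had a count in skin and 3 in spleen. Their sum was 1002, 335, 1192 and 300.2 CPM in skin replicates 1 to 4 and 0 to 29.5 CPM in spleen, while Trp63, Dsp, Krt1, Lor, Dsg1a and Dsg3 stood at 0 in every skin library. Summed markers of B cells were 0 in skin and 31.5 to 166 CPM in spleen, and those of erythroid cells at most 0.424 CPM and 111 to 228 CPM. For macrophages and dendritic cells the sums were 42.6 to 206 CPM in skin and 32.1 to 187 CPM in spleen, with Csf1r, Emr1 and Cd207 at 0 in both. Fibroblast, endothelial, neutrophil and melanocyte sums reached at most 41.7, 77.0, 0.114 and 0 CPM in skin and 152, 57.4, 23.9 and 68.6 CPM in spleen, and mast cell markers were at 0 in both. The part of other cells in the results below was not tested.

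By the main test, 3 glycolytic genes and 1 hypoxia target passed as higher in skin iNKT cells. The glycolytic genes were Gapdh (glyceraldehyde phosphate dehydrogenase), Aldoa (aldolase A) and Ldha (lactate dehydrogenase A), which stood 2.95-, 2.06- and 2-fold higher by mean CPM. The hypoxia target was Ndrg1, which had no count in any spleen library and passed the filter on low counts through skin alone. Of 26 members tested, these 4 were higher in skin by edgeR's quasi-likelihood test at a Benjamini-Hochberg adjusted p under 0.05, against 1.85% of all genes tested, and 0 were lower, against 3.58%. Over the 8 fits that each left out 1 library, Gapdh kept its call in 8, Aldoa in 5, Ldha in 1 and Ndrg1 in 0. Of the 26, 10 had an unadjusted p under 0.05, against 12.4% of all genes tested. Among the 10 were Hk2, Ndrg1, Vegfa and Pdk1, each of which passed the filter through the tissue where it was high. The count of 10 thus describes the genes and supports nothing. DESeq2 called more genes in general, 4.38% higher and 6.64% lower of those given an adjusted p. It called 7 members higher (Pgk1, Pgam1 and Vegfa besides Gapdh, Aldoa, Ldha and Ndrg1) and 1 lower, Pdk1, a kinase that inhibits pyruvate dehydrogenase.

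Members counted in every library leaned one way. Among genes with a count in all 8 libraries the fitted log2 fold change was above 0 for 16 of 16 members, with a median of 0.99, against 50.9% of 2237 genes and a median of 0.03. Of the 16, Gpi1 (0.05 ± 0.37, SE), Hif1a (0.04 ± 0.93, SE) and Pfkl (0.25 ± 1.73, SE) lay within their SE of 0, and each changed sign under some alternatives. Skin values lay wholly above spleen values for 4 of these 16 (Pfkp, Aldoa, Gapdh and Ldha), against 11.3% of the 2237, and wholly below for 0, against 12.3%. Of those 16 members, 3 were called higher, against 4.92% of the 2237, and 0 lower, against 2.10%. Over the 26 tested members the log2 fold change was above 0 for 24, with a median of 1.02, against 42.2% and a median of -0.29 for all genes tested. Skin lay wholly above for 3 more, Hk2, Ndrg1 and Vegfa (all genes tested 6.11%), and wholly below for Pdk1 (13.4%). Those 3 had counts in at most 1 spleen library and Pdk1 in 1 skin library. Each passed the filter through the tissue where it was high, so these counts over the 26 describe the genes and support nothing. They also leave out the 5 members that were too sparse for the filter on low counts, Pfkfb3, Pfkfb4, Aldoc, Slc16a3 and Bnip3. Of these, 4 had counts in spleen only and 1, Slc16a3, in both tissues, and without the filter none was called (edgeR adjusted p = 0.217 for the 4 and 0.982 for Slc16a3).

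**Figure D1:**
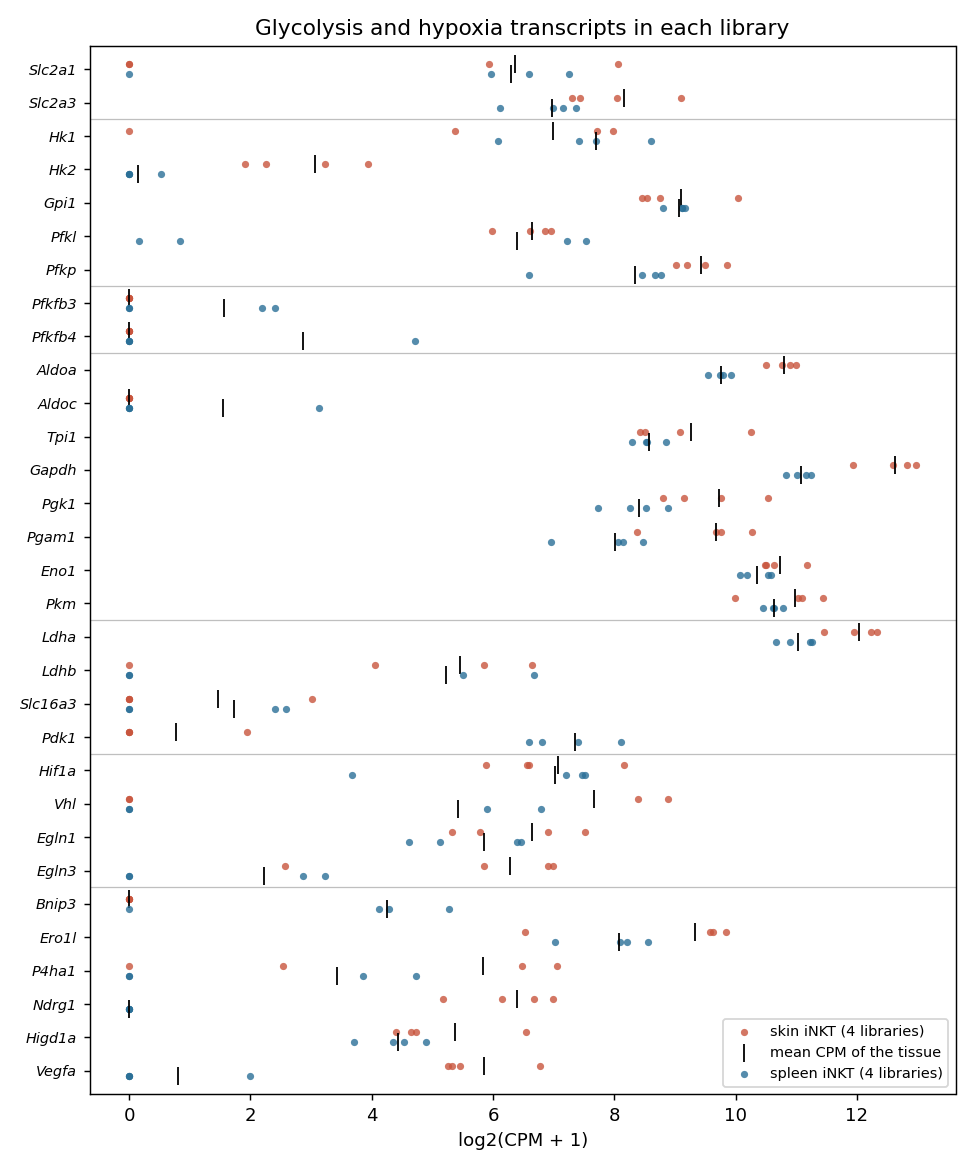
Levels of the 31 genes in each library. The x axis is log2(CPM + 1), each point is 1 library of skin (red) or spleen (blue) iNKT cells, black ticks mark the mean CPM of a tissue, and grey lines part the genes by role. The points of Gapdh, Aldoa and Ldha separate by tissue, Ndrg1 has all 4 spleen points at 0, and Pdk1 has 3 of 4 skin points at 0.

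HIF binds the core motif ACGTG or GCGTG, so promoters were read for it. Shown are those of the called glycolytic members and of Pdk1, which lay lower in skin, a choice made after their values were seen. RefSeq promoter windows of build GRCm38.p6 were matched for 29 of the 31 genes, all but Slc2a3 and Ndrg1. The counts were made on another build, and they do not show which start site was used. Each line gives the 250 bases before an annotated start, 5′ to 3′ on the gene's strand, with every match to ACGTG or GCGTG on either strand in capitals.
Ldha, first listed start, chr7:46845554-46845803, plus strand: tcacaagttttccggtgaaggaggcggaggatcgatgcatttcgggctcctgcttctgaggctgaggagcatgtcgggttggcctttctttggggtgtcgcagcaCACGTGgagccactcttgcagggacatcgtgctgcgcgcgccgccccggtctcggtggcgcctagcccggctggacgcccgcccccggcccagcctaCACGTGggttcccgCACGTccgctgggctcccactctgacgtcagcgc
Ldha, second listed start, chr7:46846832-46847081, plus strand: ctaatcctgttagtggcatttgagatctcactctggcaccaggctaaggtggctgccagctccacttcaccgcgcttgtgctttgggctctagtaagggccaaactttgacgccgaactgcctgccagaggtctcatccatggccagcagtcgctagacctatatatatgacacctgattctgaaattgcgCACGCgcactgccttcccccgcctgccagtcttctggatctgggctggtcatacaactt
Gapdh, chr6:125165774-125166023, minus strand: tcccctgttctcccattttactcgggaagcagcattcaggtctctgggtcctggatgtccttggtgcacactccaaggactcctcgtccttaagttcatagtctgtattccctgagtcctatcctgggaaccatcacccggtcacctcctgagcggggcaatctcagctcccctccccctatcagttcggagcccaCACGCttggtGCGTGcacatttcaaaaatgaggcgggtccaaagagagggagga
Aldoa, first listed start, chr7:126800448-126800697, minus strand: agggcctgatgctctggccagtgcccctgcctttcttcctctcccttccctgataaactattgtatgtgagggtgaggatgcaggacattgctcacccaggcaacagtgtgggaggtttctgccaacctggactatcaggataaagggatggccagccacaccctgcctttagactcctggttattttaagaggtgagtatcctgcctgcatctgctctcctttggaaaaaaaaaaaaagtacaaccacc
Aldoa, second listed start, chr7:126799255-126799504, minus strand: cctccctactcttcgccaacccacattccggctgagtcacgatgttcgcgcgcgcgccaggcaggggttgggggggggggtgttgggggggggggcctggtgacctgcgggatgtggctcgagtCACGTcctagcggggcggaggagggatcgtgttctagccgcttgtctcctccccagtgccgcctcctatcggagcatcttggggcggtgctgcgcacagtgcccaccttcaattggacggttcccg
Pdk1, first listed start, chr2:71872974-71873223, plus strand: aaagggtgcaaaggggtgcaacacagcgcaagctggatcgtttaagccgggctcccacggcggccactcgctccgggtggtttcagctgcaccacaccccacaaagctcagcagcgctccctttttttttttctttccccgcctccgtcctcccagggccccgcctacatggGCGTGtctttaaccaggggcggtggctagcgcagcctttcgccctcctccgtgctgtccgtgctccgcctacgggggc
Pdk1, second listed start, chr2:71874654-71874903, plus strand: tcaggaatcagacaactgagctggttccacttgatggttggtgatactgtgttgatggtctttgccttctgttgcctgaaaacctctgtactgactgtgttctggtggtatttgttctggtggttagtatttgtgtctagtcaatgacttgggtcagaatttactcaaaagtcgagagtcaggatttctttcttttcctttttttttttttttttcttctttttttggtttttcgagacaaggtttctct
The first Ldha window held ACGTG 5 times, with 2 palindromes CACGTG that each match on both strands and are also E-boxes, motifs of factors such as MYC. The second held GCGTG 1 time and no ACGTG. The bases after the first Ldha start were not found in the GENCODE transcripts of Ldha, and those after the second were. The Gapdh window held GCGTG 2 times. For Aldoa the first window held neither motif, and the second held ACGTG 1 time, as did the third, which overlaps it. For Pdk1 the first window held GCGTG 1 time and the second held neither motif. Of the other matched members without overlap between the tissues, Hk2 held ACGTG 2 times and Pfkp GCGTG 3 times, while the first window of Vegfa held neither and its second held each 1 time. Either motif was found in 32 of the 40 windows of members (80.0%), against 38.6% of all 32851 windows of that length. The members' windows were also richer in G and C, at a median of 62.8% against 52.4%, and the motifs contain CG. The members were listed as glycolysis and hypoxia genes, so this share tests nothing about HIF in these cells.

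Glucose enters T cells through the transporters Slc2a1 (GLUT1) and Slc2a3 (GLUT3). Slc2a3 stood at 156, 171, 545 and 264 CPM in skin replicates 1 to 4 and at 68.1, 142, 164 and 126 CPM in spleen replicates 1 to 4. Skin replicate 3 stood apart, and skin replicate 1 overlapped the highest spleen library. It was not called, at a log2 fold change of 1.18 ± 0.54 (SE, with edgeR adjusted p = 0.444). Slc2a1 stood at 60.4, 0, 0 and 266 CPM in skin and at 0, 152, 95.8 and 61.5 CPM in spleen. Here 2 skin libraries and 1 spleen library had no count, and the values did not show whether the tissues differed (log2 fold change 0.08 ± 2.57, SE).

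Hexokinases trap glucose as its phosphate, Hk1 being the broadly expressed form and Hk2 the inducible one. Hk2 stood at 3.78, 2.75, 8.40 and 14.4 CPM in skin, and in spleen it had 3 counts in replicate 4 and none in the others. The tissues did not overlap, at levels near the floor of detection, and Hk2 was not called (edgeR adjusted p = 0.142). Hk1 stood at 40.3, 0, 253 and 209.7 CPM in skin and at 66.8, 387, 170.5 and 206 CPM in spleen, overlapping widely. It was 1 of the 2 tested members whose log2 fold change was below 0 (-0.72 ± 1.52, SE). Gpi1, the isomerase of the next step, stood at 549.9 ± 334 CPM in skin against 532 ± 59.5 CPM in spleen (SD, n = 4 each), with skin replicate 1 at 1048 CPM and the other 3 between 351 and 432 CPM.

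Phosphofructokinase commits the sugar to glycolysis. Its platelet-type subunit Pfkp stood at 721, 518, 927 and 589.7 CPM in skin and at 96.0, 351, 405 and 434 CPM in spleen. Each skin library stood above each spleen library, and the log2 fold change of 1.10 ± 0.45 (SE) did not pass (edgeR adjusted p = 0.322). The liver-type subunit Pfkl stood at 115, 62.3, 96.6 and 123 CPM in skin, whereas spleen split into 0.779 and 0.114 CPM in replicates 1 and 2 and 185 and 149 CPM in replicates 3 and 4. Its values overlapped, and its log2 fold change was 0.25 ± 1.73 (SE). Pfkfb3 and Pfkfb4, which make the activator of phosphofructokinase, were too sparse to test. Neither had a count in skin. Pfkfb3 had 25 and 29 counts in spleen replicates 3 and 4, and Pfkfb4 had 170 in spleen replicate 4.

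The enzymes from aldolase onward, which split the sugar and recover its energy as ATP and NADH, held 2 of the 3 called glycolytic genes. Gapdh stood at 7229, 8061, 6175 and 3924 CPM in skin and at 1829, 2424, 2285 and 2071 CPM in spleen. The lowest skin library stood above the highest spleen library. Gapdh took 0.377% to 0.756% of all counts in skin and 0.194% to 0.258% in spleen. The log2 fold change of Gapdh, 1.56 ± 0.22 (SE), passed the test (edgeR adjusted p = 0.00834), and it passed in each of the 8 fits without 1 library (edgeR adjusted p = 0.00146 to 0.0374). Gapdh is widely used as a reference gene, and it and several other glycolytic enzymes have pseudogenes with which RSEM may have shared reads. In limma-voom with quality weights it was not called (adjusted p = 0.431), at a log2 fold change of 1.70.

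Aldoa stood at 1896, 2039, 1741 and 1446 CPM in skin and at 856, 748, 965 and 882 CPM in spleen. The 2 tissues were well apart. The log2 fold change, 1.05 ± 0.16 (SE), passed the test (edgeR adjusted p = 0.0133). The call was lost without spleen replicate 1, 2 or 4, at adjusted p of 0.0576, 0.0625 and 0.0515, while the fold change stayed between 0.93 and 1.11 over the 8 fits that left out 1 library. Aldoc, the brain-type aldolase, had no count in skin and 52 in spleen replicate 4, and was not tested.

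Pgam1 (phosphoglycerate mutase) and Pgk1 (phosphoglycerate kinase, the first ATP-forming step) came close. Pgam1 stood at 867, 1239, 820.0 and 329.9 CPM in skin and at 122, 356, 265 and 282 CPM in spleen. Skin replicate 4 overlapped spleen replicate 2, and the log2 fold change, 1.67 ± 0.45 (SE), missed the threshold (edgeR adjusted p = 0.0739). Without skin replicate 4 Pgam1 was called (edgeR adjusted p = 0.0427). Pgk1 stood at 447, 1488, 567 and 868 CPM in skin and at 472, 212, 304 and 368 CPM in spleen, and missed it too (log2 fold change 1.31 ± 0.42, SE, with edgeR adjusted p = 0.142). Skin replicate 2 was high for Pgk1, as it was for Tpi1 (triose phosphate isomerase), which stood at 1219.8 CPM there and ran from 342 to 539 CPM in the other 3 and from 314 to 459 CPM in spleen. Tpi1 was not called (log2 fold change 0.71 ± 0.42, SE).

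The last 2 steps to pyruvate were not called. Eno1 (enolase) stood at 2322, 1587, 1449 and 1439 CPM in skin and at 1169, 1525, 1475 and 1073 CPM in spleen (log2 fold change 0.37 ± 0.21, SE; edgeR adjusted p = 0.619). Pyruvate kinase M stood at 2096, 1021, 2791 and 2183 CPM in skin and at 1406, 1562, 1754 and 1595 CPM in spleen (log2 fold change 0.36 ± 0.27, SE; edgeR adjusted p = 0.881). Both overlapped, enolase through its upper spleen values and pyruvate kinase through skin replicate 2. Gene counts do not separate the M1 and M2 splice forms of pyruvate kinase.

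**Figure D2:**
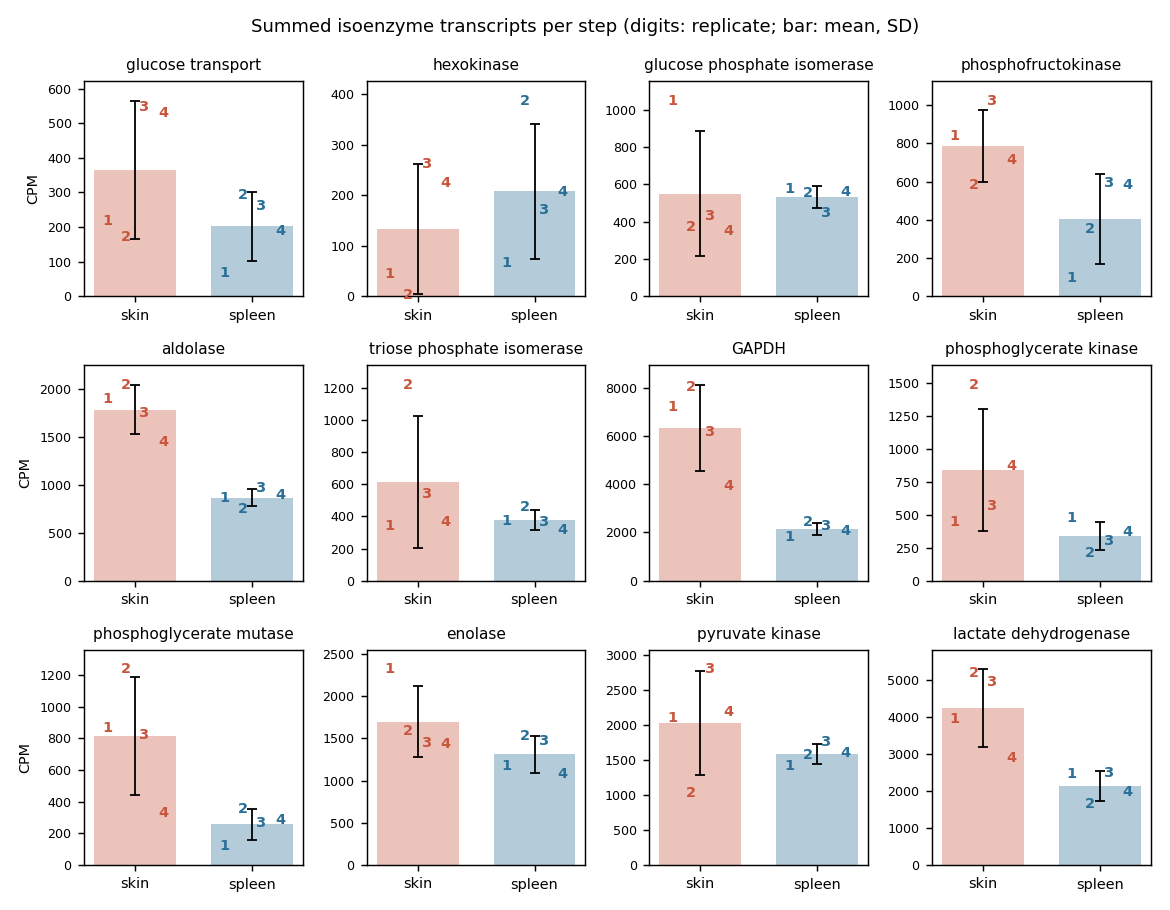
Transcripts of each step, isoenzymes summed. The y axis of each panel is CPM from 0, digits mark the replicate number, bars the mean and whiskers the SD (n = 4). Skin lies wholly above spleen for aldolase, GAPDH and lactate dehydrogenase, and overlaps it in the other 9 of the 12 panels.

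Summed by step, the tissues separated for 3 of 12 steps, which rest almost wholly on the called genes Aldoa, Gapdh and Ldha. Among single genes counted in all 8 libraries, skin lay wholly above spleen for 11.3%. The 13 enzymes from hexokinase to pyruvate kinase together stood at 17126, 17606, 15799 and 11841 CPM in skin and at 6963, 8575, 8622 and 7939 CPM in spleen, 1.94 times as much in skin by the mean. Without Gapdh the sum was 9246 ± 899 CPM in skin and 5872 ± 529 CPM in spleen (SD, n = 4 each), 1.57 times as much, again with no overlap. The skin libraries differed among themselves from aldolase to lactate dehydrogenase. Skin replicate 2 was highest in 6 of these 8 steps and skin replicate 4 lowest in 5. The summed keratinocyte markers of these 2 libraries were 335 and 300.2 CPM, against 1002 and 1192 CPM in skin replicates 1 and 3. The part of keratinocytes in these levels was not tested. In such bulk samples, fewer cells that carry a transcript and less of it per cell cannot be told apart.

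Lactate dehydrogenase A favours the reduction of pyruvate to lactate. Ldha stood at 3941, 5164, 4830.5 and 2817 CPM in skin and at 2441, 1633, 2389 and 1913 CPM in spleen. Skin replicate 4 came nearest to spleen and still lay above it. The log2 fold change, 1 ± 0.21 (SE), passed close to the threshold (edgeR adjusted p = 0.0473). Of the 8 fits that each left out 1 library, 1 kept the call, that without skin replicate 4 (edgeR adjusted p = 0.0223), against 0.0854 to 0.13 in the other 7.

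The other genes of pyruvate and lactate handling did not follow Ldha. Ldhb, the form known for running from lactate to pyruvate, stood at 0, 15.6, 99.3 and 56.5 CPM in skin and at 0, 0, 101 and 44.6 CPM in spleen, with full overlap (log2 fold change 0.23 ± 2.65, SE). The lactate exporter Slc16a3 (MCT4) had 62 counts in skin replicate 3, 35 and 29 in spleen replicates 3 and 4 and none elsewhere, and was not tested. Pdk1, the kinase that inhibits pyruvate dehydrogenase, stood at 276, 111, 95.9 and 167 CPM in spleen. In skin it had 25 counts in replicate 3, which is 2.84 CPM, and none in the other 3 libraries. The tissues were far apart, opposite in direction to Ldha, and Pdk1 was not called (log2 fold change -7.80 ± 2.41, SE; edgeR adjusted p = 0.127).

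Pdk1 was called lower without skin replicate 3 (edgeR adjusted p = 0.0364), by DESeq2 (adjusted p = 0.00019) and by limma-voom (adjusted p = 0.0117). Zeros were common in skin at this level: of 1666 genes in the table with a spleen mean of 100 to 250 CPM, 10.98% stood at 0 in at least 3 skin libraries.

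Of the HIF subunit and its regulators, 4 genes in all, 0 were called by edgeR or DESeq2 and 0 had an unadjusted p under 0.05. Over all genes tested edgeR called 1.85% higher and 3.58% lower, and 12.4% had an unadjusted p under 0.05. With shares this small, 0 of 4 genes does not set the group apart from other genes. Hif1a, the oxygen-regulated subunit, stood at 96.0, 93.1, 286 and 58.3 CPM in skin and at 11.8, 183, 146 and 177 CPM in spleen. The tissues overlapped, with means of 133 ± 103 and 129 ± 80.0 CPM and a log2 fold change of 0.04 ± 0.93 (SE). Vhl, the ubiquitin ligase subunit that recognises hydroxylated HIF, stood at 333 and 472 CPM in skin replicates 1 and 4 and at 109 and 58.4 CPM in spleen replicates 1 and 4. It had no count in replicates 2 and 3 of either tissue.

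Egln1 and Egln3 encode prolyl hydroxylases that act as oxygen sensors, and Egln3 is itself a target of HIF. Egln3 stood at 119, 4.95, 56.5 and 126 CPM in skin and at 0, 0, 6.27 and 8.32 CPM in spleen. Skin replicate 2 fell among the spleen values while the other 3 skin libraries stood well above them, and Egln3 was not called (log2 fold change 4.39 ± 2.42, SE; edgeR adjusted p = 0.622). Egln1 stood at 119, 54.0, 183 and 39.1 CPM in skin and at 23.5, 82.8, 87.4 and 33.7 CPM in spleen, overlapping (log2 fold change 0.79 ± 1.10, SE).

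Among the hypoxia targets, Ndrg1, a differentiation and stress gene, and Vegfa, the angiogenic growth factor, were largely found in skin. Ndrg1 stood at 69.9, 35.3, 101 and 126 CPM in the skin libraries and had no count in any spleen library. It was at least 220.3-fold higher against a floor of 3 counts per library, averaged over spleen (edgeR adjusted p = 0.0473). This bound covers counting error only. The call was lost in each of the 8 fits without 1 library (edgeR adjusted p = 0.0788 to 0.137), without the filter on low counts (0.116) and without the 50 most abundant genes (0.0502). Vegfa stood at 39.1, 42.9, 109 and 37.3 CPM in skin and had 20 counts in spleen replicate 4, 2.97 CPM, and none in the other spleen libraries.

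Each skin library stood above each spleen library for Vegfa, which was not called (edgeR adjusted p = 0.362). DESeq2 called it (adjusted p = 0.0207), and so did limma-voom (adjusted p = 0.0284). Of 1459 genes in the table with a skin mean of 50 to 100 CPM, tested or not, 1.58% had no count in any spleen library and 5.76% had none in at least 3. The keratinocyte sum moved with tissue as these genes did, from 300.2 to 1192 CPM in skin and up to 29.5 CPM in spleen, and its part in them was not tested.

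The other hypoxia targets were mixed. Ero1l, an oxidase of the endoplasmic reticulum, stood at 920.1, 762, 789 and 91.4 CPM in skin and at 294, 129, 376 and 272 CPM in spleen. Of the 4 skin libraries 3 stood above every spleen library and replicate 4 below them, and Ero1l was not called (log2 fold change 1.26 ± 0.63, SE; edgeR adjusted p = 0.531). P4ha1, a collagen prolyl hydroxylase subunit, stood at 88.1, 0, 131 and 4.80 CPM in skin and at 0, 0, 25.7 and 13.5 CPM in spleen. Higd1a, a mitochondrial protein of the hypoxia response, stood at 20.1 to 25.4 CPM in 3 skin libraries, at 91.8 CPM in skin replicate 4 and at 12.1 to 28.7 CPM in spleen. Both overlapped and neither was called. Bnip3, a receptor for the removal of mitochondria, had no count in skin, stood at 37.6, 18.5 and 16.4 CPM in spleen replicates 2 to 4 and had none in spleen replicate 1. It was too sparse to test, and it leaned against Ndrg1 and Vegfa.

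**Figure D3:**
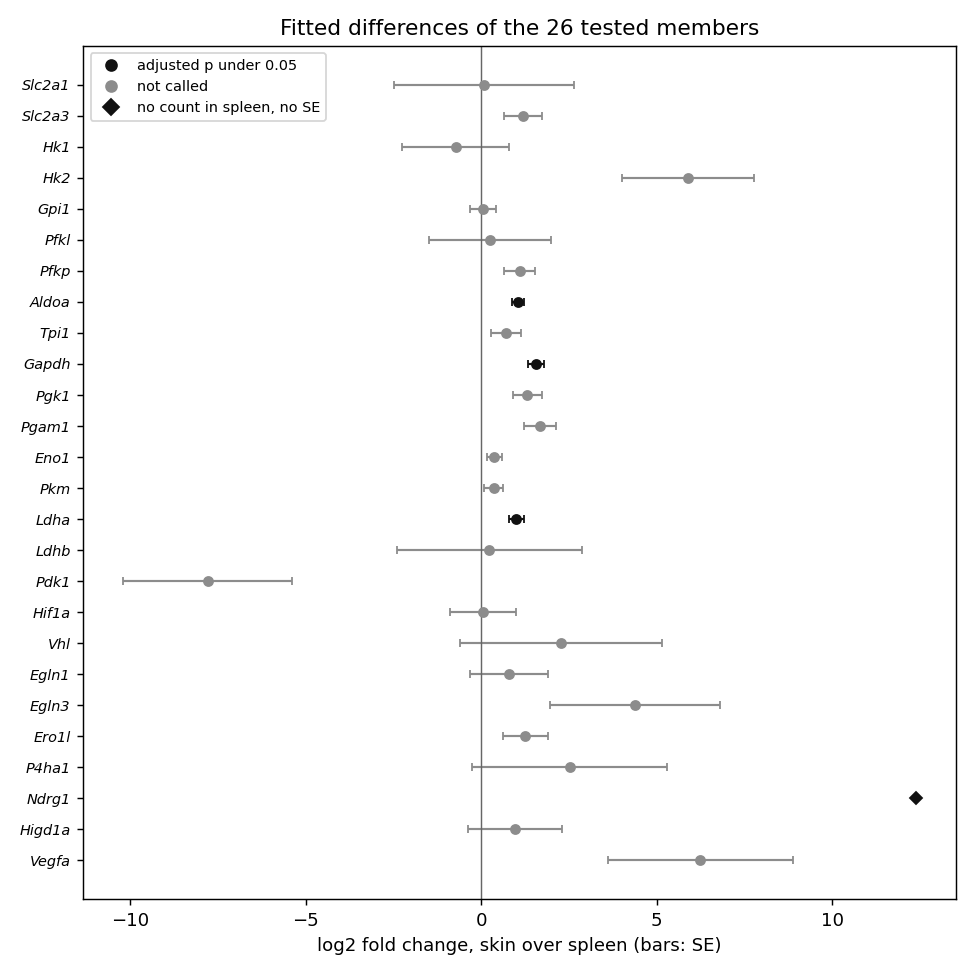
Fitted log2 fold change, skin over spleen, of the 26 tested members, with SE as bars. Black symbols passed an adjusted p under 0.05, grey ones did not, and the diamond for Ndrg1 has no SE because spleen had no count. Gapdh, Aldoa and Ldha have bars of 0.16 to 0.22, and Pdk1 lies at -7.80.

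Related genes outside the group were read from 6 lists, which together held 79 tested genes. Of these 1 was higher and 0 lower by edgeR (all genes tested 1.85% and 3.58%), and DESeq2 called 4 higher and 1 lower (4.38% and 6.64%). These counts are near or below the shares over all genes. Of 7 tested genes of other glycolytic isoenzymes and carriers 0 were called, and the median log2 fold change was -0.22. An unadjusted p under 0.05 was found for 1 of the 7 (all genes tested 12.4%). That gene was Emb, which encodes embigin, a partner of monocarboxylate transporters, at 706 ± 231 CPM in skin against 388 ± 101 CPM in spleen. The lactate and pyruvate carrier Slc16a1 stood at 565, 0, 1108 and 0 CPM in skin and at 107, 0, 91.2 and 141 CPM in spleen.

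Genes beyond pyruvate did not lean toward skin. In the list of pyruvate entry and the tricarboxylic acid cycle 0 of 20 tested genes were called (all genes tested 1.85% higher and 3.58% lower). The log2 fold change was above 0 for 6 of the 20 (all genes tested 42.2%) and below 0 for 14. The median was -0.21, near that of all genes. Pdhx, which tethers a subunit of the pyruvate dehydrogenase complex, had no count in skin and stood at 97.3, 68.0, 22.5 and 12.6 CPM in spleen (edgeR adjusted p = 0.051). DESeq2 called it lower (adjusted p = 7.07e-07). Suclg1, a subunit of succinyl-CoA ligase, stood at 154 ± 104 CPM in skin against 300.2 ± 69.5 CPM in spleen, with overlap. In the pentose phosphate list 0 of 8 were called by edgeR or DESeq2, 0 had an unadjusted p under 0.05 (all genes tested 12.4%), and the median was -0.63. Its enzymes Taldo1 and Tkt stood at 357 ± 170.4 and 37.1 ± 74.1 CPM in skin and at 446 ± 126 and 110.5 ± 54.0 CPM in spleen.

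Of 43 other hypoxia targets listed, 30 had a count in any library and 17 were tested. The counts below leave out those too sparse to test, and only 4 of the 17 were counted in all 8 libraries. Of the 17, 13 had a log2 fold change above 0 (all genes tested 42.2%), the median was 1.43 and 0 were called. An unadjusted p under 0.05 was found for 2 of the 17, near the 12.4% of all genes tested. Skin lay wholly above spleen for 5 of the 17 and below for 0 (all genes tested 6.11% and 13.4%). Of the 5, Mxi1 and Jmjd6 had a count in 3 of 4 spleen libraries and Cxcr4 in 2 of 4. Wsb1 and Bnip3l were counted in all 8 libraries, and among such genes 11.3% lay wholly above. The count of 5 thus describes these genes and supports nothing. Wsb1, a ubiquitin ligase adaptor, stood at 917, 540.4, 643 and 535 CPM in skin and at 81.6, 4.21, 107 and 131 CPM in spleen, with no overlap (log2 fold change 3.03 ± 0.82, SE; edgeR adjusted p = 0.0746). It was called by DESeq2 (adjusted p = 0.00126), by limma-voom (adjusted p = 0.0225) and without spleen replicate 2 (edgeR adjusted p = 0.0174). Bnip3l, the relative of Bnip3, stood at 358, 488, 436 and 642 CPM in skin and at 221, 28.8, 196 and 267 CPM in spleen, also with no overlap (edgeR adjusted p = 0.338). Bnip3 and Bnip3l thus leaned in opposite directions, a difference that was not tested.

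Other parts of the HIF machinery were split. Of 11 tested 0 were called by edgeR and 1 by DESeq2, 2 had an unadjusted p under 0.05 (all genes tested 12.4%), and the median was -0.32. Rbx1, a subunit of the ubiquitin ligase that holds Vhl, stood at 171 ± 75.4 CPM in skin against 396 ± 109.8 CPM in spleen (SD, n = 4 each; edgeR adjusted p = 0.153). Cited2, which competes with HIF for its coactivators, stood at 229 ± 116 and 82.7 ± 26.3 CPM (edgeR adjusted p = 0.318). Neither overlapped between the tissues. Of 16 tested regulators of glucose use 1 was higher, Txnip, which restrains glucose uptake and follows glucose supply. It stood at 1202, 918, 711 and 1008 CPM in skin and at 127, 134, 374 and 428 CPM in spleen, with no overlap (log2 fold change 1.85 ± 0.44, SE; edgeR adjusted p = 0.0486). The call was lost in each of the 8 fits without 1 library (edgeR adjusted p = 0.0859 to 0.137).

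**Figure D4:**
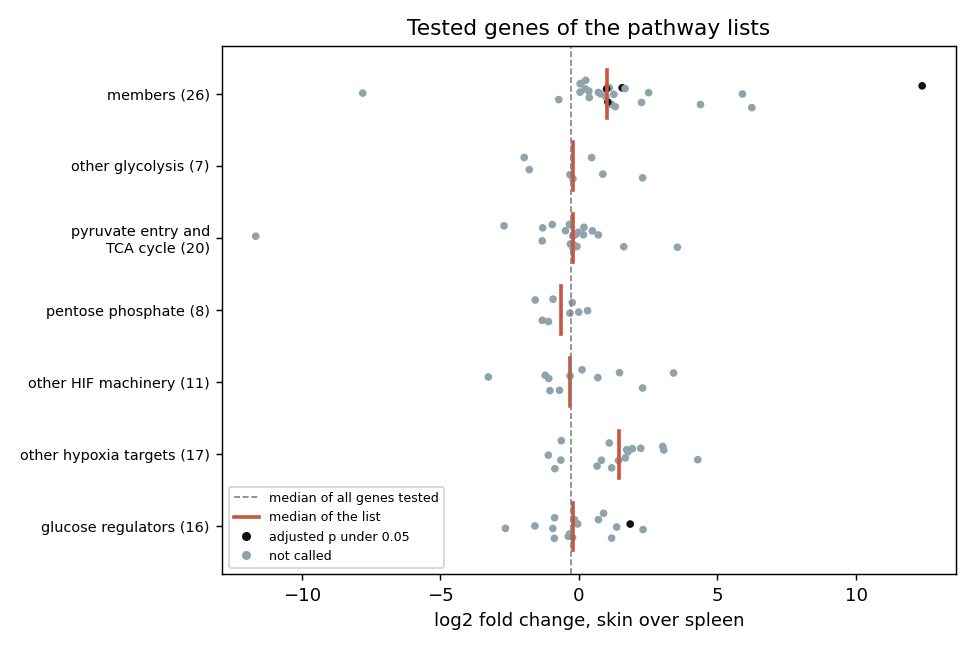
Log2 fold change, skin over spleen, of each tested gene of the group and of the 6 related lists. Each point is 1 gene, black where called, the red bar is the median of a list and the dashed line that of all genes tested (-0.29). The medians of the members (1.02) and of the other hypoxia targets (1.43) lie to the right of that line, while those of the other 5 lists run from -0.63 to -0.19.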

How the data were processed

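RNA of skin and spleen iNKT cells (4 libraries each) was sequenced from full-length cDNA made with a kit for small inputs whose reads keep no strand, per the labels' protocols. The authors deposited an expected count for each gene, estimated with RSEM and not scaled for library size, per the submitters' processing notes, which also name FastQC, DESeq2 1.16.1 and mm9. Aligner and annotation: not given in the sources used here. Columns were assigned by the labels' descriptions, and 0 columns were left unused.

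Expected counts were rounded and tested over the whole table with edgeR 4.0.16 in R 4.3.3: filterByExpr (6920 genes), TMM scaling, and a robust quasi-likelihood fit with tissue as the only term, adjusted by Benjamini-Hochberg at 0.05. The SE is the log2 fold change divided by the square root of F. CPM use the TMM-scaled totals. A floor of 3 counts was 0.292 to 0.454 CPM. The fit was tested on counts simulated with far less spread than these libraries show (common dispersion 2.94) and without added zeros. That test does not show how the fit performs at the spread seen here. No 2 libraries of a tissue agreed within sampling noise (smallest chi-square per degree of freedom 112).

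The members and lists were chosen with earlier results of these data known. Named were all 31 members and, of each related list, up to 3 called genes in each direction or, with none, the 2 smallest p-values. Alternatives were RLE and upper-quartile scaling, 2 other filters, DESeq2 1.42.0, limma-voom (limma 3.58.1), a replicate block, removal of the 50 most abundant genes and each library left out. A filter that asks for a count in 3 or more libraries of both tissues was chosen after seeing the data.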

Additional observations from a re-analysis of the deposited data

Results flagged for a closer look

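In groups of 4 libraries, a member was set apart where the gap between its highest or lowest library and the nearest other exceeded Dixon's 95% limit for the group's range. For normally distributed values chance sets apart about 1 group in 20, a rate that need not hold for CPM with many zeros. Of the 57 groups of a member and a tissue with any spread, 11 were set apart, and in 6 of these the other 3 libraries had no count. A group with 3 libraries at 0 always exceeds the limit, so the count of 11 cannot be weighed against that rate.

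Spleen replicate 4 alone held Hk2 (0.446 CPM), Pfkfb4 (25.3 CPM), Aldoc (7.73 CPM) and Vegfa (2.97 CPM) among the spleen libraries. It was also the spleen library with the most genes detected, 10094 against 6415 to 8690 in the others. Skin replicate 3 alone held Slc16a3 (7.04 CPM) and Pdk1 (2.84 CPM) among the skin libraries. It also stood apart for Hif1a, at 286 CPM against at most 96.0 CPM, and for Vegfa, at 109 CPM against at most 42.9 CPM. Skin replicate 1 stood apart for Gpi1, at 1048 CPM against at most 432 CPM, and for Eno1, at 2322 CPM against at most 1587 CPM. Skin replicate 4 stood apart for Higd1a, at 91.8 CPM against at most 25.4 CPM.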

How the results depend on the processing

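Over 17 alternatives, 429 values of the 26 tested members were recomputed: 377 kept their direction and their side of the threshold, 24 lost a call, 9 gained one and 19 changed sign. None of the sign changes concerned a called gene. Members with a log2 fold change above 0 numbered 24 of 26, and 20 of 26 with limma-voom, 24 of 31 without a filter and 20 of 28 without spleen replicate 1. The count of higher members was 4, and 7 with DESeq2, 5 with limma-voom, 3 without a filter and 3 with the filter on both tissues. It was 1 without the 50 most abundant genes (3 members, Gapdh, Ldha and pyruvate kinase, were then left out) and 1 to 4 without 1 library. Lower members numbered 0, and 1 with DESeq2 and with limma-voom, and 0 to 1 without 1 library. Other pathway genes called higher numbered 1, and 0 without a filter or without the 50 most abundant genes, 4 with DESeq2, 3 with limma-voom and 0 to 1 without 1 library. Those called lower numbered 0, and 1 with the filter of 5 CPM in 4 libraries, 1 with DESeq2, 2 with limma-voom and 0 to 1 without 1 library. Apart from the settings that leave out genes or libraries, the cause was not tested.

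Same-numbered skin and spleen libraries did not deviate together (correlations -0.000311 to 0.0138), and 1 of 4 skin libraries correlated best with its own number. With up to 32.6% of tested genes at 0 in a library, shared mice could go unseen. The check thus does not settle whether the numbers pair the libraries. With the replicate number as a block, 1 member was higher (Gapdh, adjusted p = 0.0376) and 0 lower, and 0 other pathway genes were higher. The signs that turned were of Slc2a1 (log2 fold change -3.95 with the block, -4.07 with limma-voom and -2.0 to 0.62 without 1 library) and Gpi1 (-0.11 with the block, -0.11 with limma-voom, -0.00599 without the 50 most abundant genes and -0.50 to 0.16 without 1 library). Ldhb (-1.49), Hif1a (-0.19) and Slc16a1 (-2.44) turned with limma-voom. Without 1 library Ldhb ran from -0.62 to 1.52, Hif1a from -0.69 to 0.26 and Pfkl from -0.18 to 0.99.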
